A study of Mus musculus with 14 samples.

Results

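The 51 genes described here encode proteins that drive cells into mitosis, build the spindle, hold and separate chromosomes and divide the cell. They were taken by symbol from a list of mitosis and chromosome segregation genes, and all 51 were found among the 27179 genes of the count table. All 51 also passed the filter on low counts that left 13075 genes for testing. The measurements are bulk RNA-seq of CD4 T cells from C57BL/6 mice. Naive cells were activated for 3.5 days on plate-bound antibodies to CD3 and CD28, stained, sorted and lysed, and 100 ng of RNA went into each library. Th1 denotes the Th1 culture (5 libraries). TfhA denotes a Tfh culture with an antibody against TGF-β (4 libraries, numbered 1, 2, 4 and 5), and Tfh5 a Tfh culture with 5 ng/ml TGF-β (5 libraries). The labels give no other allele or agent, do not state the sort gates, the cytokines of the Th1 culture or the age of the mice, and do not say whether replicates came from separate animals or cultures. The p-values below therefore measure only the spread between these samples, which may be technical.

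Mitosis begins when cyclin A and cyclin B activate the kinase CDK1. Chromosomes are then condensed by condensin and topoisomerase II and attached through kinetochores to spindle microtubules. The spindle checkpoint holds back the anaphase-promoting complex until attachment is complete. CDC20 then directs the complex to destroy securin and cyclin B, separase cuts cohesin, and the cell divides. Most of these genes are transcribed late in the cell cycle. The MuvB complex and the transcription factors B-MYB, FOXM1 and NF-Y act on their promoters. A short element called the cell cycle genes homology region (CHR) and CCAAT boxes are characteristic of these promoters. Activated CD4 T cells divide several times within a few days.

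The promoters of 6 members are shown because they carry these elements near the start of transcription. They are the 120 bases before the start of an annotated transcript, 5′ to 3′ on the gene's strand, from RefSeq on GRCm38.p6. The annotated gene spans of Top2a (to 99024199), Espl1 (from 102296254) and Ncapg (from 45669891) begin further upstream than that start. Part of each of these stretches, with the CHR match of Espl1 and Ncapg, therefore lies inside the gene's span. Capitals mark the CHR letters (TTTGAA or TTCGAA, or TTCAAA where the match is on the other strand) and the CCAAT box (CCAAT, or ATTGG on the other strand). Cdk1 encodes the entry kinase and lies on the minus strand at chr10:69352913-69353032. Top2a encodes topoisomerase II alpha and lies on the minus strand at chr11:99024190-99024309. Cdc20 encodes the activator of the anaphase-promoting complex, on the minus strand at chr4:118437344-118437463. Espl1 encodes separase, on the plus strand at chr15:102296173-102296292. Kif11 encodes the kinesin that pushes spindle poles apart, on the plus strand at chr19:37376262-37376381. Ncapg encodes a condensin subunit, on the plus strand at chr5:45669805-45669924.
Cdk1: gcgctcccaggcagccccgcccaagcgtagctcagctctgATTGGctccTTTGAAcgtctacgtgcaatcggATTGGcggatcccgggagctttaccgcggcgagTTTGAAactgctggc
Top2a: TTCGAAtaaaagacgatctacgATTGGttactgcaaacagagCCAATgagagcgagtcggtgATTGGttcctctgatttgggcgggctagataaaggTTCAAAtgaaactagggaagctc
Cdc20: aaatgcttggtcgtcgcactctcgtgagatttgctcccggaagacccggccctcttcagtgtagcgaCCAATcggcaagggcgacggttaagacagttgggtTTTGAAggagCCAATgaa
Espl1: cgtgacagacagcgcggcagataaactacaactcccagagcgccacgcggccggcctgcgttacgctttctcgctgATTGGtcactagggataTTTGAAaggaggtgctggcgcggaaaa
Kif11: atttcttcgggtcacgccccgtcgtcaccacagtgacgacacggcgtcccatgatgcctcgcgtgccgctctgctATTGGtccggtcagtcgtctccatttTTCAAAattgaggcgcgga
Ncapg: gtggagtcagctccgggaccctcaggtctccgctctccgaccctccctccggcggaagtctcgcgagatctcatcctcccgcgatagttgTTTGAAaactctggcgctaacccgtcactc

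In these 6 sequences, Cdk1 and Top2a each held 2 CHR matches, and the other 4 held 1 each. Top2a held 3 CCAAT boxes, Cdk1 and Cdc20 held 2, Espl1 and Kif11 held 1, and Ncapg held none in this stretch. Promoter windows from 250 bases before to 50 bases after the start were available for 42 of the 51 members, and windows for Ccna2, Aurkb, Incenp, Spc24, Kif20a, Tpx2, Cdc25c, Foxm1 and Smc4 were not used here. TTTGAA or TTCGAA, searched on both strands, was found for 34 of the 42 genes (81.0%), against 16.5% of the 9911 tested genes with a window. CCAAT, also on both strands, was found for 32 (76.2%), against 43.2%. Both motifs were found for 30 (71.4%), against 7.0%. A CHR match within 50 bases of the start was found in 33 of 45 member promoters (73.3%), since some genes have more than one, and in 3.74% of the 12610 promoters of tested genes. The 8 members with a window but no CHR match were Birc5, Ccnb1, Cenpe, Mad2l1, Ncaph, Nuf2, Nusap1 and Pttg1. Some windows lay inside the span of their gene, among them those of Kif2c and Pttg1. The Pttg1 window was chr11:43425932-43426231 on the minus strand, and the gene's span runs to 43427463. Sequence further upstream was not searched for these genes. The motif search describes letters in these windows and does not measure binding.

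The libraries held 8805921 to 16108059 counts assigned to genes, with higher totals in Th1. The summed level of 7 CD4 T cell markers ran from 3640 to 3970 CPM (counts scaled to a common library size) over the Th1 libraries. The range was 4290 to 5300 CPM for TfhA and 6550 to 7310 CPM for Tfh5, and all 7 were detected in every library. The 5 B cell markers summed to between 4.35 and 7 CPM in TfhA, and to at most 1.68 in Th1 and 1.7 in Tfh5. The 5 myeloid markers summed to between 1.81 and 3.03 CPM in TfhA, and to at most 0.902 in Th1 and 1.6 in Tfh5. In TfhA this was mostly Itgam (mean 2.02 CPM). Adgre1 was at 0 in every library, and Hba-a1 and Hbb-bs were at 0 as well. The 4 CD8 T and NK cell markers summed to 8.54 to 33.9 CPM, mostly from Cd8b1, and Ncr1 was at 0. Mitochondrial transcripts made up 8.03% ± 0.594 of counts in Tfh5 (SD, n = 5), 5.82% ± 1.30 in TfhA (n = 4) and 5.91% ± 0.871 in Th1 (n = 5). The Tfh5 share was above both others (two-sided exact permutation tests, adjusted p = 0.0239 against TfhA and 0.0238 against Th1, over 6 tests). The part of these differences in the results below was not tested.

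The mitosis genes were highest in TfhA, lower in Th1 and lowest in Tfh5. Together they took 1.31% ± 0.052 of all counts in TfhA (SD, n = 4), 0.895% ± 0.053 in Th1 (n = 5) and 0.58% ± 0.036 in Tfh5 (n = 5). The ranges over libraries, 1.26 to 1.37%, 0.814 to 0.958% and 0.539 to 0.626%, did not overlap. The order TfhA, Th1, Tfh5 held for the fitted levels of 47 of 51 members and for 18.7% of all tested genes. In 27 members every TfhA library lay above every Th1 library and every Th1 library above every Tfh5 library, as in 3.04% of all tested genes. In bulk RNA, fewer dividing cells and less of these transcripts per dividing cell cannot be told apart.

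**Figure D1:**
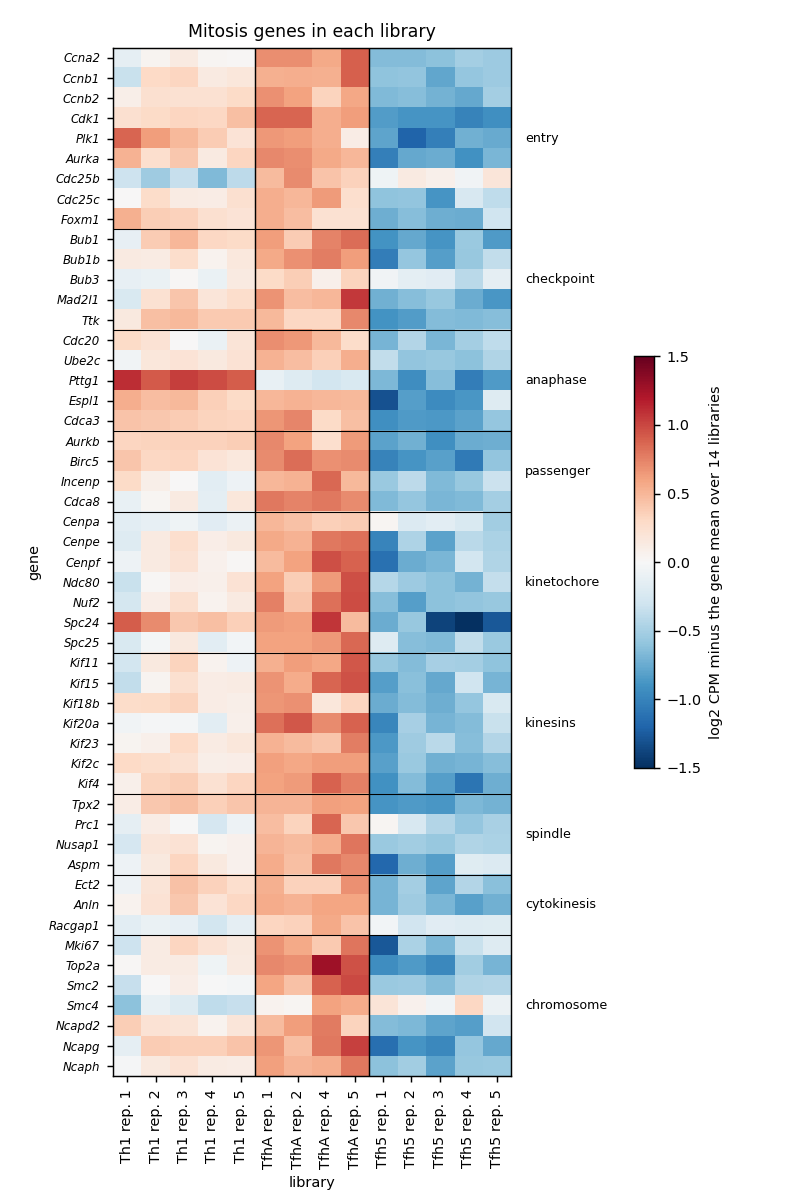
Each row is one of the 51 genes, grouped by role, and each column one of the 14 libraries; colour gives log2 CPM minus the gene's mean over the libraries, with the scale ending at 1.5 in both directions. The 4 TfhA columns are the reddest and the 5 Tfh5 columns the bluest for most rows, and Pttg1, Smc4 and Cdc25b stand apart.

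With TGF-β in the Tfh culture instead of the blocking antibody, 50 of 51 members fell and none rose, where 30.1% of all tested genes fell and 27.4% rose. The median log2 fold change of the members was -1.25, a 2.39-fold lower level, against -0.01 over all tested genes. In 42 members the level was at least 2-fold lower, which held for 13.1% of all genes. The libraries of the same 50 members did not overlap between the groups, against 23.4% of all genes that were lower without overlap. Calls are from edgeR's quasi-likelihood test with Benjamini-Hochberg adjustment over all 13075 genes at 0.05, and this holds for every adjusted p below.

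In the comparison of the TGF-β-blocked Tfh culture with Th1, 41 members were higher in TfhA, 1 was lower and 9 did not pass. Of all genes, 23.2% were higher and 21.6% lower. The median log2 fold change of the members was 0.46, a 1.38-fold higher level, against 0.03 over all genes. Every TfhA library lay above every Th1 library for 35 members (19.3% of all genes), of which 34 passed the test and Tpx2 did not. The reverse held for 1 member (18.7% of all genes). The B cell and myeloid marker sums were also higher in TfhA, without overlap with Th1. Of the myeloid markers, only Itgam had a higher mean (0.15 CPM in Th1, 2.02 in TfhA). Lyz2, Csf1r and Cd14 had lower means in TfhA, and Adgre1 was at 0. The part of these sums in this result was not tested.

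Against Th1, 45 members were lower in Tfh5, 2 were higher and 4 did not pass, where 33.0% of all genes were lower and 31.5% higher. The median log2 fold change was -0.72, a 1.65-fold lower level, against -0.02 over all genes. Of the 45, 14 were at least 2-fold lower (15.3% of all genes). The groups did not overlap for 42 members that were lower (26.5% of all genes) and for the 2 that were higher (23.7%). The 3 comparisons share libraries, so that their values for a gene are not independent.

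**Figure D2:**
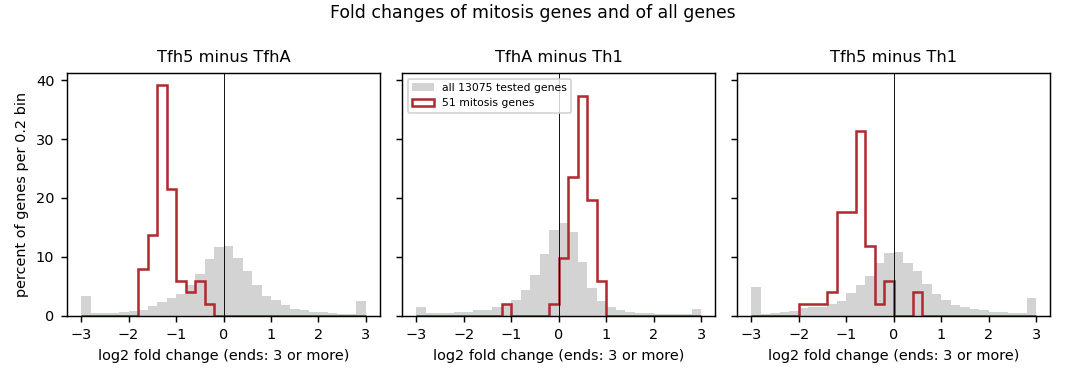
Histograms of log2 fold changes for the 51 mitosis genes (red outline) and all 13075 tested genes (grey), one panel per comparison, as the percent of genes per bin. The members lie to the left of 0 in the comparison of Tfh5 with TfhA, mostly to the right in TfhA against Th1, and mostly to the left in Tfh5 against Th1.

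Among the cyclins, kinases, phosphatases and Foxm1 grouped here as starting mitosis, all 9 members fell in Tfh5 against TfhA (30.1% of all tested genes). Cdk1 (chromosome 10, 69335146 to 69352912, RefSeq on GRCm38, as for the other gene spans) stood at 223, 229, 236, 234 and 258 CPM in the Th1 libraries. It stood at 344, 344, 275 and 291 in TfhA and at 105, 102, 102, 93.7 and 99.9 in Tfh5. No Cdk1 value of one culture fell within the range of another. The log2 fold change was -1.64 ± 0.09 (± SE) between Tfh5 and TfhA (adjusted p = 5.62e-14) and 0.41 ± 0.09 between TfhA and Th1 (adjusted p = 0.000442). Its partner Ccna2, cyclin A2, read 299, 338, 359, 335 and 333 CPM in Th1, 533, 533, 488 and 609 in TfhA and 208, 209, 214, 231 and 225 in Tfh5. The Ccna2 groups were again fully separated, with a 2.49-fold lower level in Tfh5 than in TfhA (adjusted p = 2.14e-12). Ccnb1, cyclin B1, gave 55.6, 85.6, 87.5, 76.9 and 78.6 CPM in Th1, 101, 102, 101 and 130 in TfhA and 45.9, 46.2, 40.6, 46.9 and 47.8 in Tfh5. The lowest Th1 library, replicate 1, still lay above every Tfh5 library. The Ccnb1 to Ccna2 ratio was similar in the cultures, 0.23 ± 0.026 in Th1, 0.2 ± 0.0118 in TfhA and 0.209 ± 0.0132 in Tfh5 (SD). Ccnb2, cyclin B2, read 235, 260, 258, 259 and 269 CPM in Th1, 354, 335, 277 and 330 in TfhA and 139, 142, 135, 129 and 155 in Tfh5. Its groups were fully separated, and it was 2.31-fold lower in Tfh5 than in TfhA (adjusted p = 1.79e-11).

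Plk1 and Foxm1 did not pass between TfhA and Th1 and fell in Tfh5. Plk1, a kinase of centrosome maturation and mitotic exit, stood at 91.9, 77.1, 69.9, 64.9 and 57.7 CPM in Th1, 78.4, 77.1, 72.9 and 54.1 in TfhA and 28.8, 21.7, 24.5, 30.4 and 29.5 in Tfh5. The Th1 and TfhA values overlapped (log2 fold change -0.03 ± 0.13, adjusted p = 0.864), while all Tfh5 values were lower (2.62-fold against TfhA, adjusted p = 4.03e-09). Foxm1, the transcription factor that acts on many G2 and M phase genes, read 120, 107, 105, 97.9 and 95.3 CPM in Th1, 121, 114, 97.1 and 96.9 in TfhA and 49.8, 53.4, 49.9, 49.5 and 67.4 in Tfh5. It was 1.99-fold lower in Tfh5 than in TfhA (adjusted p = 2.35e-08) and did not pass between TfhA and Th1 (log2 fold change 0.03 ± 0.11, adjusted p = 0.834). Aurka, the spindle pole kinase, stood at 85.7, 71.4, 79.3, 65.9 and 75 CPM in Th1, 98.7, 96.9, 88.5 and 84.7 in TfhA and 29.5, 35.2, 35.9, 32 and 37.4 in Tfh5. Its TfhA and Th1 values overlapped slightly, and all Tfh5 values were lower (2.71-fold against TfhA, adjusted p = 9.34e-12). It was higher in TfhA than in Th1 by a log2 fold change of 0.29 ± 0.10 (adjusted p = 0.0196). That call was lost without Th1 replicate 2 or 4 or TfhA replicate 1 or 2, and with no filter on low counts (adjusted p up to 0.0701).

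Of the phosphatases that activate CDK1, Cdc25b was higher and Cdc25c lower in Tfh5 than in Th1. Cdc25b (chromosome 2, 131186436 to 131198511) stood at 104, 89, 102, 81.5 and 98.2 CPM in Th1, 179, 212, 174 and 164 in TfhA and 124, 142, 136, 125 and 147 in Tfh5. All Tfh5 values lay between the Th1 and the TfhA values. It had the largest rise among the members from Th1 to TfhA, 1.92-fold (adjusted p = 2.25e-08), and was 1.42-fold higher in Tfh5 than in Th1 (log2 fold change 0.51 ± 0.09, adjusted p = 4.03e-05). Cdc25c read 24.5, 29.5, 26.6, 26.4 and 28.9 CPM in Th1, 35.5, 34.4, 37.9 and 29.1 in TfhA and 16, 16.2, 13.2, 20.7 and 18.7 in Tfh5, and was 1.6-fold lower in Tfh5 than in Th1 (adjusted p = 3.54e-05). Its higher level in TfhA than in Th1 (log2 fold change 0.33 ± 0.13, adjusted p = 0.0357) was lost without Th1 replicate 1, 3 or 4 or TfhA replicate 1, 2 or 4. Further settings that ended it were the unfiltered table (0.0937) and a fit with the replicate number as a block (adjusted p = 0.0912). The ratio of Cdc25b to Cdc25c CPM was 3.52 ± 0.52 in Th1, 5.36 ± 0.686 in TfhA and 8.14 ± 1.56 in Tfh5 (SD, n = 5, 4 and 5).

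In the spindle checkpoint group, all 5 members fell in Tfh5 against TfhA (30.1% of all tested genes). Bub3 had the smallest fold change of the 5. Bub1, a checkpoint kinase at kinetochores, stood at 86.6, 123, 133, 117 and 115 CPM in Th1, 146, 123, 158 and 168 in TfhA and 50.9, 55.5, 51.2, 64.4 and 52.5 in Tfh5. Bub3, which brings BUB1 and BUBR1 to kinetochores, read 221, 225, 244, 225 and 263 CPM in Th1, 293, 311, 253 and 304 in TfhA and 232, 217, 213, 182 and 218 in Tfh5. Tfh5 and Th1 overlapped for Bub3 but not for Bub1. Bub1 was 2.71-fold lower in Tfh5 than in TfhA (adjusted p = 1.22e-10), and Bub3 1.37-fold lower (adjusted p = 0.000159). The Bub3 to Bub1 ratio was 2.09 ± 0.321 in Th1, 1.99 ± 0.397 in TfhA and 3.92 ± 0.655 in Tfh5. Mad2l1, the MAD2 protein that blocks CDC20, read 145, 199, 227, 193 and 204 CPM in Th1, 272, 234, 240 and 356 in TfhA and 103, 109, 115, 102 and 93.1 in Tfh5. Its groups did not overlap, and it was 2.64-fold lower in Tfh5 than in TfhA (adjusted p = 5.4e-10). The call for Bub1 between TfhA and Th1 (log2 fold change 0.37 ± 0.11) was lost without TfhA replicate 5 (adjusted p = 0.0521). Ttk, the MPS1 kinase, stood at 51.6, 63.4, 65.1, 61 and 61.1 CPM in Th1, 65.3, 57.9, 57.9 and 76.6 in TfhA and 24.9, 26.1, 29.6, 29.3 and 29.8 in Tfh5. Its TfhA and Th1 values overlapped, and it did not pass between TfhA and Th1 (log2 fold change 0.09 ± 0.11, adjusted p = 0.506).

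The genes of anaphase and mitotic exit held the clearest exception. Pttg1 encodes securin, which keeps separase inactive (chromosome 11, 43420244 to 43427463). It stood at 112, 98.7, 107, 103 and 97.5 CPM in Th1, at 48.1, 45.7, 43.1 and 44.6 in TfhA and at 32.7, 27.3, 33.4, 25.3 and 28.9 in Tfh5. It was the member of the 51 that was lower in TfhA than in Th1, by 2.28-fold (log2 fold change -1.19 ± 0.10, adjusted p = 5.27e-10), with no overlap. Between TfhA and Tfh5 it fell, with a log2 fold change of -0.62 ± 0.10 (adjusted p = 8.96e-06), and Tfh5 lay 3.51-fold below Th1 (adjusted p = 1.36e-14). Espl1, separase itself, read 56.9, 53.7, 54.4, 49.9 and 47.7 CPM in Th1, 55.1, 55.9, 55.1 and 54.8 in TfhA and 15.8, 22, 20.3, 21.2 and 34 in Tfh5. It overlapped between Th1 and TfhA (adjusted p = 0.71) and was 2.43-fold lower in Tfh5 than in TfhA (adjusted p = 3.99e-08). The Pttg1 to Espl1 ratio was 1.98 ± 0.0889 in Th1, 0.822 ± 0.0377 in TfhA and 1.4 ± 0.469 in Tfh5. Cdc20, the activator of the anaphase-promoting complex, stood at 87, 83, 71.2, 66.5 and 81.6 CPM in Th1, 115, 112, 99.9 and 85.9 in TfhA and 44, 52.3, 44.2, 49.9 and 54.6 in Tfh5. Ube2c, the ubiquitin-conjugating enzyme of the complex, read 487, 564, 581, 556 and 583 CPM in Th1, 725, 696, 647 and 735 in TfhA and 391, 335, 340, 328 and 367 in Tfh5. Both were lower in all Tfh5 libraries than in the others, by 2.11-fold and 1.99-fold against TfhA, and TfhA overlapped Th1 for Cdc20 only. Cdca3, which takes part in degrading the mitosis inhibitor WEE1, stood at 286, 281, 276, 267 and 264 CPM in Th1, 334, 353, 258 and 290 in TfhA and 112, 118, 117, 121 and 142 in Tfh5. Its TfhA values spread around its Th1 values. It did not pass between TfhA and Th1 (adjusted p = 0.159), though it did without TfhA replicate 4 (0.0389).

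**Figure D3:**
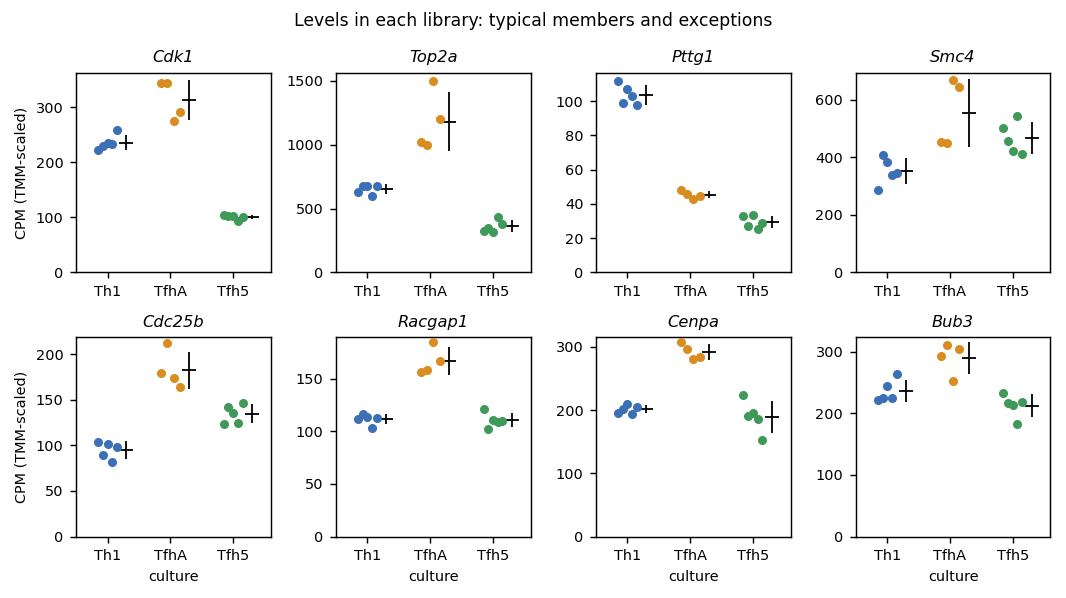
CPM of 8 genes in each of the 14 libraries (points) with the mean and SD beside them, by culture, on axes that start at 0. Cdk1 and Top2a follow the common order, Pttg1 is highest in all 5 Th1 libraries, Smc4 and Cdc25b are lowest in Th1, and Racgap1, Cenpa and Bub3 are close in Th1 and Tfh5.

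The chromosomal passenger complex senses tension at kinetochores. All 4 of its members fell in Tfh5 against TfhA (30.1% of all tested genes) and rose in TfhA against Th1 (23.2%). Birc5, survivin, stood at 170, 159, 160, 147 and 143 CPM in Th1, 209, 229, 205 and 208 in TfhA and 64, 69, 72.8, 61.2 and 84.5 in Tfh5. The 3 groups were fully separated, and Birc5 was 3.03-fold lower in Tfh5 than in TfhA (adjusted p = 4.48e-13). Aurkb, the kinase of the complex, read 200, 201, 203, 203 and 206 CPM in Th1, 263, 242, 191 and 249 in TfhA and 91.8, 96.7, 84.6, 95.5 and 96.2 in Tfh5. TfhA replicate 4 lay below all Th1 libraries, and the call between TfhA and Th1 (log2 fold change 0.22 ± 0.09, adjusted p = 0.0456) was lost in 14 of 21 alternative settings, with adjusted p up to 0.172. With the replicate number as a block its adjusted p was 0.103. Libraries whose removal ended it were each of the 5 Th1 libraries, TfhA replicates 1, 2 and 5 and Tfh5 replicates 2 and 4. Incenp, the scaffold, and Cdca8, borealin, were 2.13-fold and 2.59-fold lower in Tfh5 than in TfhA.

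At the centromere and kinetochore, 7 of 7 members fell in Tfh5 against TfhA (30.1% of all tested genes). Cenpa, the histone H3 variant that marks centromeres (chromosome 5, 30666877 to 30674837), stood at 196, 201, 209, 194 and 205 CPM in Th1, 307, 296, 280 and 284 in TfhA and 223, 190, 195, 186 and 152 in Tfh5. Th1 and Tfh5 overlapped (log2 fold change -0.09 ± 0.09, adjusted p = 0.394). Cenpe, a kinetochore motor, read 110, 139, 150, 135 and 140 CPM in Th1, 187, 181, 218 and 223 in TfhA and 63.7, 91.7, 72.3, 95.4 and 91.2 in Tfh5. The Cenpe groups were fully separated, and it was 2.44-fold lower in Tfh5 than in TfhA and 1.63-fold lower than in Th1 (adjusted p = 5.71e-06). The Cenpa to Cenpe ratio was 1.5 ± 0.157 in Th1, 1.46 ± 0.208 in TfhA and 2.38 ± 0.732 in Tfh5. Spc24, a subunit of the NDC80 complex that binds microtubules, read 25.4, 22.2, 18, 18.5 and 17.4 CPM in Th1, 21.1, 20.8, 28.4 and 18.9 in TfhA and 8.09, 9.18, 5.19, 4.27 and 5.6 in Tfh5. It had the largest fall of the members between TfhA and Tfh5, 3.46-fold (adjusted p = 1.9e-08), at the lowest CPM of the set. It overlapped between Th1 and TfhA (log2 fold change 0.13 ± 0.18, adjusted p = 0.578). Ndc80, the complex's main microtubule-binding subunit, stood at 47.1, 59.9, 63.8, 62.7 and 68.8 CPM in Th1, 90.1, 76.7, 92.7 and 116 in TfhA and 44, 40.6, 38.6, 36.4 and 46.2 in Tfh5. Its groups did not overlap, and it was 2.28-fold lower in Tfh5 than in TfhA (adjusted p = 7.22e-09).

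All 7 kinesins, motors of the spindle and midzone, fell in Tfh5 against TfhA by 2.07-fold to 2.95-fold. They also fell in Tfh5 against Th1, by 1.5-fold to 2.15-fold. Of all tested genes, 30.1% and 33.0% fell in these comparisons. Kif11 stood at 168, 225, 257, 211 and 193 CPM in Th1, 296, 314, 304 and 388 in TfhA and 137, 130, 144, 143 and 134 in Tfh5, with no overlap between groups. Kif20a, a motor of cytokinesis, read 52.1, 53.7, 53, 48.5 and 57.1 CPM in Th1, 95.7, 103, 88.7 and 100 in TfhA and 27.5, 38.2, 33.4, 34.5 and 43 in Tfh5. It had the largest rise of the kinesins from Th1 to TfhA, 1.83-fold (adjusted p = 3.45e-07). Kif2c, which depolymerizes microtubules at centromeres, stood at 57.6, 56.3, 55.3, 50.1 and 50.3 CPM in Th1, 71.9, 70.4, 72.8 and 72.8 in TfhA and 26.7, 31.9, 28.6, 28.9 and 30.2 in Tfh5. It was fully separated too, and 2.46-fold lower in Tfh5 than in TfhA (adjusted p = 1.33e-11). Kif18b, a kinesin of microtubule plus ends, read 59.2, 60, 61.9, 52.9 and 52.2 CPM in Th1, 77.3, 79, 55.1 and 61.1 in TfhA and 29.3, 31.3, 29.4, 32.9 and 41.8 in Tfh5. Its TfhA and Th1 values overlapped. It did not pass between them (log2 fold change 0.25 ± 0.12, adjusted p = 0.0921) but did without TfhA replicate 4 (0.0287) and with library totals only (0.0399).

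The spindle, midzone and cytokinesis genes fell by different amounts. Tpx2, an activator of Aurora A, read 269, 329, 341, 320 and 333 CPM in Th1, 355, 356, 382 and 379 in TfhA and 135, 138, 136, 156 and 153 in Tfh5. Its TfhA values lay above its Th1 values without passing the test (adjusted p = 0.0529), and Tfh5 was 2.56-fold below TfhA (adjusted p = 1.91e-12). The difference between TfhA and Th1 passed with library totals only (0.0134), with DESeq2 (0.0459) and without Tfh5 replicate 1 (0.0469). Prc1, which bundles midzone microtubules, stood at 82.6, 98.5, 90.3, 76.3 and 86.4 CPM in Th1, 125, 115, 167 and 120 in TfhA and 93.1, 77.2, 67.2, 60.6 and 64.9 in Tfh5. Tfh5 replicates 1 and 2 lay within the Th1 range. The difference between Tfh5 and Th1 did not pass (log2 fold change -0.26 ± 0.12, adjusted p = 0.0579), but it passed without Tfh5 replicate 1 (0.00602), Th1 replicate 4 (0.0419) or TfhA replicate 4 (0.0345), and with no filter on low counts (0.0274). Aspm, a spindle pole protein, read 59.9, 69.9, 79.1, 70 and 65.9 CPM in Th1, 92.7, 86.3, 109 and 104 in TfhA and 28, 37.9, 35.5, 55.8 and 54.8 in Tfh5. The groups did not overlap, and Aspm was 2.3-fold lower in Tfh5 than in TfhA (adjusted p = 1.9e-07).

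Racgap1 and Ect2 together switch on RhoA for the cleavage furrow. Racgap1 (chromosome 15, 99620496 to 99651656) read 112, 116, 114, 103 and 113 CPM in Th1, 156, 158, 185 and 167 in TfhA and 121, 102, 111, 109 and 110 in Tfh5. Its Th1 and Tfh5 values overlapped (log2 fold change -0.01 ± 0.08, adjusted p = 0.909), and it was 1.5-fold lower in Tfh5 than in TfhA (adjusted p = 1.93e-06). Ect2 stood at 74.3, 89.7, 106, 99.6 and 93.3 CPM in Th1, 113, 100, 99.4 and 126 in TfhA and 48.5, 55.2, 45.2, 57.9 and 50.7 in Tfh5. Every Tfh5 value was below every Th1 value (1.8-fold, adjusted p = 1.22e-07), and TfhA did not pass against Th1 (adjusted p = 0.0667). That difference passed with library totals only (0.0211), without Th1 replicate 3 (0.0392) and without TfhA replicate 4 (0.048). The Racgap1 to Ect2 ratio was 1.22 ± 0.189 in Th1, 1.54 ± 0.242 in TfhA and 2.17 ± 0.306 in Tfh5. Anln, the furrow scaffold anillin, stood at 48.8, 54.6, 62.4, 54.4 and 58.5 CPM in Th1, 69.3, 67.8, 71.2 and 71.1 in TfhA and 29.1, 32.6, 29.2, 26.8 and 28.5 in Tfh5. It was fully separated between the groups and 2.39-fold lower in Tfh5 than in TfhA (adjusted p = 5.51e-11).

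**Figure D4:**
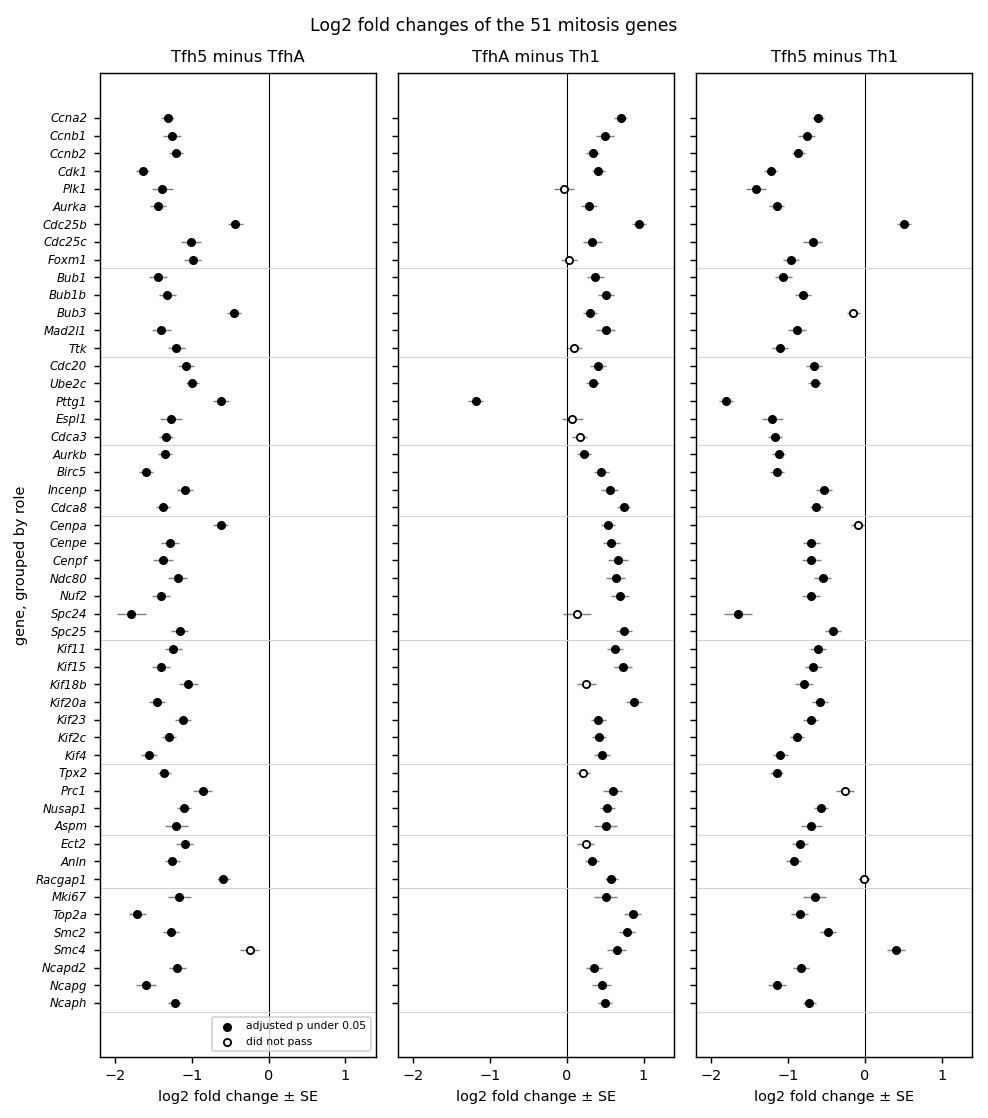
Log2 fold changes with standard errors for the 51 genes, grouped by role, in the 3 comparisons; filled points passed an adjusted p of 0.05 and open points did not. Smc4 is the open point in the comparison of Tfh5 with TfhA, Pttg1 lies far to the left in TfhA against Th1, and Smc4 and Cdc25b lie to the right in Tfh5 against Th1.

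The genes of chromosome structure included Top2a, with one of the largest fold changes of the members between Tfh5 and TfhA, and Smc4, with the smallest in that comparison. Top2a (chromosome 11, 98992947 to 99024199) stood at 630, 679, 674, 595 and 680 CPM in Th1, 1020, 998, 1500 and 1200 in TfhA and 326, 345, 319, 434 and 382 in Tfh5. The 3 groups were fully separated, with a 3.27-fold lower level in Tfh5 than in TfhA (adjusted p = 3.36e-12) and a 1.81-fold higher level in TfhA than in Th1 (adjusted p = 1.06e-06). Mki67, the Ki-67 protein that coats mitotic chromosomes and is a common marker of cycling cells, read 1030, 1400, 1600, 1490 and 1420 CPM in Th1, 2050, 1900, 1680 and 2240 in TfhA and 531, 919, 805, 1020 and 1120 in Tfh5. Tfh5 replicate 5 lay above Th1 replicate 1, the lowest Th1 library. Mki67 was 2.24-fold lower in Tfh5 than in TfhA (adjusted p = 5.28e-07) and 1.58-fold lower than in Th1 (adjusted p = 0.00036).

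Smc2 and Smc4 are the paired ATPase subunits of condensin, and Smc2 fell in Tfh5 against TfhA while Smc4 did not pass. Smc4 (chromosome 3, 69004738 to 69034623) stood at 286, 407, 384, 337 and 347 CPM in Th1, 454, 449, 669 and 644 in TfhA and 501, 458, 422, 545 and 413 in Tfh5. Tfh5 overlapped TfhA and lay above every Th1 library. It was the 1 member that did not pass between Tfh5 and TfhA (log2 fold change -0.24 ± 0.12, adjusted p = 0.0991), although it passed without TfhA replicate 1 (0.0378) or 2 (0.0334). Against Th1 it was higher in Tfh5, 0.41 ± 0.12 (adjusted p = 0.00419). Smc2 read 149, 190, 203, 189 and 186 CPM in Th1, 284, 257, 350 and 375 in TfhA and 129, 130, 120, 138 and 139 in Tfh5, with no overlap between groups and a 2.41-fold lower level in Tfh5 than in TfhA (adjusted p = 2.86e-10). The Smc4 to Smc2 ratio was 1.92 ± 0.134 in Th1, 1.74 ± 0.129 in TfhA and 3.57 ± 0.389 in Tfh5. The condensin I subunits Ncapd2, Ncapg and Ncaph were 2.28-fold, 3.03-fold and 2.34-fold lower in Tfh5 than in TfhA. Ncapd2 itself stood at 298, 270, 264, 241 and 263 CPM in Th1, 322, 357, 396 and 292 in TfhA and 148, 145, 134, 131 and 190 in Tfh5, and TfhA replicate 5 lay within the Th1 range. Its higher level in TfhA than in Th1 (log2 fold change 0.35 ± 0.11) was lost without TfhA replicate 4 (adjusted p = 0.0511).

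Levels between genes were compared per kilobase of exon. The length was the union of all annotated exons of a gene, so the order of genes depends on that annotation. Ube2c had the highest level per length in every culture, 213 CPM per kb in Th1, 270 in TfhA and 135 in Tfh5. Ccnb2 followed, at 167, 212 and 91.4 CPM per kb. The next was Mki67 in Th1 and TfhA (138 and 196 CPM per kb) and Smc4 in Tfh5 (89.7). The lowest level per length belonged to Cenpf in Th1 (4.9 CPM per kb), Espl1 in TfhA (6.31) and Spc24 in Tfh5 (2.51), and the median over members was 24.6, 32.9 and 14.1.

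Some libraries often stood at one end of their group. Th1 replicate 1 was the lowest Th1 library for 30 of 51 members (58.8%, against 31.1% of all genes), and Th1 replicate 3 the highest for 24 (47.1%, against 17%). Among the Tfh5 libraries, replicate 5 was highest for 20 members (39.2%, against 22.6%) and replicate 1 lowest for 20 (39.2%, against 28.2%). For 12 members, exons overlap a gene on the opposite strand, up to 29.3% of the exonic bases for Kif20a and 22.8% for Ube2c, and the notes used here do not state whether counting was stranded. Reads of Ccnb1 and Kif4 could also be shared with the pseudogenes Ccnb1-ps and Kif4-ps, which held 533 and 145 counts over all libraries.

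Counts of other genes of the same processes are set here against the 30.1% of all tested genes that fell and the 27.4% that rose in Tfh5 against TfhA. Of the 38 tested further spindle, motor and cytokinesis genes, 35 fell and 1 rose in Tfh5 against TfhA (median log2 fold change -0.996). The 35 include Ckap4, which encodes a membrane protein of the endoplasmic reticulum. Gtse1, a microtubule-associated protein of G2 and M phase, was 2.82-fold lower. Of 21 inner kinetochore and centromere genes 18 fell and none rose, with Cenpm 3.55-fold lower (7.08 ± 1.8 against 25.1 ± 4.29 CPM). The 21 include Cenpj, a centriole gene, which did not pass (adjusted p = 0.311). Of 20 outer kinetochore and checkpoint genes 15 fell and 1 rose, with Trip13, a checkpoint ATPase, 3.89-fold lower (adjusted p = 4.01e-11). Among 21 mitotic kinases and entry regulators 16 fell and 1 rose, with Melk, a kinase of cycling cells, 3.78-fold lower (adjusted p = 9.84e-14).

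In Tfh5 against TfhA, 10 of 16 tested genes of the anaphase-promoting complex and its regulators fell and none rose, with a median log2 fold change of -0.35. The regulators in this list include Fbxo5, an inhibitor of the complex, and Fzr1, a coactivator. Of 16 cohesin and condensin II genes, 11 fell and none rose, with a median of -0.49. Cdca5, sororin, which keeps cohesin on chromosomes, was 2.91-fold lower (adjusted p = 8.58e-11). In TfhA against Th1, 23.2% of all genes rose and 21.6% fell. There, 2 of the 16 genes of the anaphase-promoting complex and its regulators rose and 2 fell (12.5% each), shares below those of all genes. Fbxo5 was among those that rose and Fzr1 among those that fell. Of the 16 cohesin and condensin II genes, 9 rose and 1 fell. All 41 DNA replication genes fell in Tfh5 against TfhA (median -1.46), while 31 rose and 1 fell in TfhA against Th1 (median 0.40). Chaf1a, a histone chaperone of replication, stood at 14.6 ± 1.76 CPM in Tfh5 and 62.3 ± 14.7 in TfhA (SD, n = 5 and 4).

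**Figure D5:**
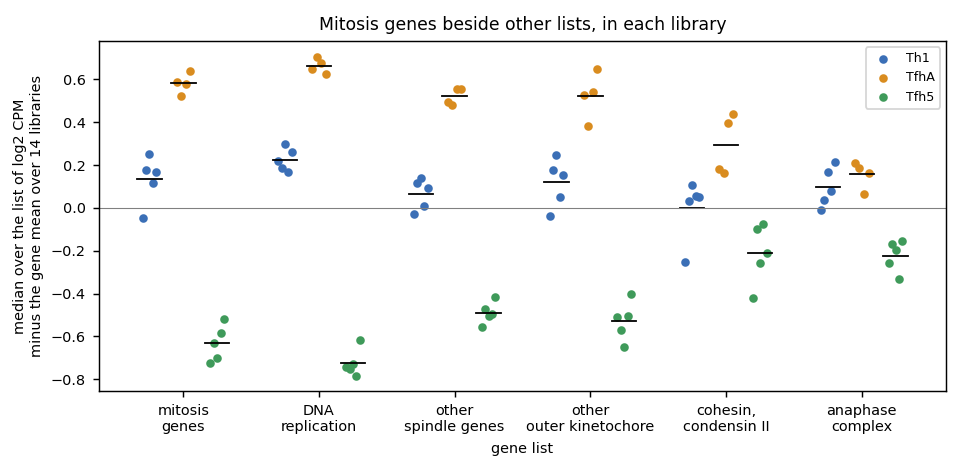
For each of 6 gene lists, every point is a library's median over the list of log2 CPM minus each gene's mean over the 14 libraries, coloured by culture, with bars at the group means. The mitosis genes lie at 0.52 to 0.64 in TfhA, -0.05 to 0.25 in Th1 and -0.72 to -0.52 in Tfh5. The list of the anaphase-promoting complex and its regulators spreads least.

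Regulators of the cell cycle included genes that fell and genes that rose in Tfh5 against TfhA. Of 23 E2F, DREAM and MuvB genes, 15 fell (65.2%, against 30.1% of all genes) and 4 rose (17.4%, against 27.4%). E2f1, an activator of S phase genes, stood at 6.24 ± 1.38 CPM in Tfh5 and 17.2 ± 3.98 in TfhA, and Mybl2, B-MYB, was 2.44-fold lower (adjusted p = 2.6e-06). Rb1, the retinoblastoma protein that restrains E2F, was higher in Tfh5 at 412 ± 57.9 CPM against 252 ± 41.3 (adjusted p = 5.8e-05). Its relatives differed: Rbl1 was 1.6-fold lower in Tfh5 than in TfhA and Rbl2 1.41-fold higher. Of 18 tested D cyclins, CDK inhibitors and genes of cell cycle exit, 8 fell (44.4%, against 30.1% of all genes) and 7 rose (38.9%, against 27.4%), with a median log2 fold change of -0.15. Btg1, an antiproliferative factor, was 3.46-fold higher in Tfh5 than in TfhA and Ccng2, an atypical cyclin of resting cells, 3.26-fold higher. Cdkn1a, the p21 inhibitor, fell in Tfh5 against TfhA and stood at 509 ± 62.9 CPM in Th1, 194 ± 29.6 in TfhA and 37 ± 4.64 in Tfh5.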

How the data were processed

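The authors deposited raw read counts per gene for 14 libraries. Per the submitters' processing notes, reads were handled with STAR 2.7.2b and featureCounts 1.6.4 on mm10. No annotation or strand setting is given in the notes used here. Entrez identifiers were matched to symbols for 25275 of 27179 genes. From the deposited counts, edgeR 4.0.16 (R 4.3.3) with TMM scaling, filterByExpr and the quasi-likelihood test was fitted to all 3 groups without covariates. It gave two-sided p-values, adjusted by Benjamini-Hochberg over 13075 genes. CPM are TMM-scaled, and CPM per kb uses the exon union length of GENCODE. The biological coefficient of variation was 14.25%. Replicates differed by more than sampling noise in all 26 pairs within groups (chi-square per degree of freedom 4.15 to 30.64). The test was also run on simulated counts in which far fewer genes changed than were called here. No result above rests on that run.

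The members and the gene lists were chosen with earlier results of these data known. The text gives library values for a panel of 30 members, for members with the 3 largest and 3 smallest fold changes in a comparison, and for those that did not pass or went against the majority. A few others (Smc2, Cdc25c, Incenp, Cdca8, Ncapg and Ncaph) were named for their place beside a panel gene. From each pathway list, up to 3 called genes with the largest change were eligible. Rb1, Rbl1, Rbl2, Cenpj and Ckap4 were named after their values were seen. The gene pairs given as ratios were not fixed by these rules. Alternatives were RLE and library-total scaling, DESeq2 1.42.0, other filters on low counts, only the 2 groups compared, a replicate block, and leaving out each library.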

Additional observations from a re-analysis of the deposited data

Results flagged for a closer look

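In each culture and member, the highest and the lowest library were compared with the others by their gap relative to the group's range. Of 153 such groups 10 stood out (6.5%), where chance gives about 1 in 20. Ccnb1 reached 130 CPM in TfhA replicate 5, against 101 to 102 in the other TfhA libraries. Ccnb1 was also low in Tfh5 replicate 3, at 40.6 CPM against 45.9 to 47.8. Birc5 stood at 229 CPM in TfhA replicate 2, against 205 to 209. Incenp stood at 173 CPM in TfhA replicate 4, against 133 to 136. Nuf2, a kinetochore subunit, was at 24.9 CPM in Tfh5 replicate 2, against 28.4 to 29.8. In Tfh5 replicate 5, Kif18b reached 41.8 CPM (29.3 to 32.9 in the others), Foxm1 67.4 CPM (49.5 to 53.4) and Ncapd2 190 CPM (131 to 148). In Th1 replicate 1, Ube2c was at 487 CPM (556 to 583 in the others) and Ncapg at 84.7 CPM (119 to 125).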

How the results depend on the processing

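Over 21 alternative settings, the members lower in Tfh5 than in TfhA numbered 50 to 51 and those higher 0. Members higher in TfhA than in Th1 numbered 38 to 44 and those lower 1. Members lower in Tfh5 than in Th1 numbered 45 to 46 and those higher 2. The median log2 fold changes ranged from -1.29 to -1.20, from 0.42 to 0.52 and from -0.79 to -0.70. The call and direction held in all settings for 50, 38 and 49 of 51 members in the 3 comparisons. Directions turned only for differences that did not pass. Plk1 between TfhA and Th1 was 0.024 with library totals only, and -0.11 to 0.068 when single libraries were left out. Foxm1 was -0.003 without a filter on low counts, and -0.032 to 0.08 with libraries left out. The causes were not tested.

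Over 13 pairs of same-numbered libraries, deviations from the group means correlated between -0.048 and 0.155. Replicate 5 of TfhA and Th1 (0.155) and replicate 4 of Tfh5 and Th1 (0.053) were each other's closest match. These correlations rest on means of 4 or 5 libraries. They cannot decide whether a number stands for a shared animal or day. With the replicate number as a block, 50 members were lower in Tfh5 than in TfhA, 39 higher in TfhA than in Th1 and 45 lower in Tfh5 than in Th1. The spread between 4 and 5 libraries limits small differences such as those of Ect2 and Kif18b.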
